A study of Mus musculus with 30 samples.

Results

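The genes described here are 35 genes of glycolysis, lactate metabolism and the hypoxia response, followed in mouse neural retina with and without damaging light. They were taken by gene name from a written list, with the counts of all transcripts of a gene summed, and all 35 were found among the 42439 gene identifiers of the count tables. All 35 passed the filter on low counts in both experiments and entered every comparison of the main edgeR fits. The list holds the glucose transporter Slc2a1, 15 genes that encode the enzymes from hexokinase to pyruvate kinase, and the lactate dehydrogenases Ldha and Ldhb. It goes on with the lactate carriers Slc16a1 and Slc16a3 with their chaperone Bsg, the 4 pyruvate dehydrogenase kinases Pdk1 to Pdk4, and the regulatory enzymes Pfkfb2, Pfkfb3 and Pfkfb4. The remaining 7 are Hif1a, its sensors Egln1 and Egln3, the hypoxia targets Vegfa and Bnip3, and the coactivators Ppargc1a and Ppargc1b.

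Glycolysis splits glucose into pyruvate. Photoreceptors of the retina turn most of that pyruvate into lactate even where oxygen is present, a habit known as aerobic glycolysis. Hexokinase 2, the M2 form of pyruvate kinase and lactate dehydrogenase A are known for their high levels in photoreceptors, and lactate leaves and enters cells through monocarboxylate carriers that need basigin to reach the membrane. Pyruvate dehydrogenase kinases hold pyruvate back from mitochondria, PGC-1 coactivators promote mitochondrial genes, and HIF-1 raises many glycolytic genes when the prolyl hydroxylases encoded by Egln genes lack oxygen.

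RNA was taken from neural retina, and the donors were Abca4-/-Rdh8-/- mice of 4 to 6 weeks on a C57BL/6J background. They lack a transporter and a dehydrogenase that help to clear all-trans-retinal. Every group carried both deletions, and no wild-type retina was among the samples. The mixture experiment had 4 groups: DMSO without bright light, DMSO before light, BMT before light and MDB before light. In BMT, tamsulosin (TAM) was added to bromocriptine (BRM) and metoprolol (MTP), and in MDB it was replaced by doxazosin (DOX). The single-drug experiment had 6 groups: DMSO without bright light, DMSO before light, and each of BRM, MTP, TAM and DOX alone before light. Each of the 10 groups had 3 libraries, 30 in all. Illuminated mice received 10000 lux for 30 min, injections came 30 min before the light, and retinas were collected 24 h after it. No group had a drug without light, so a drug group can be compared only with the illuminated DMSO group or the DMSO group without bright light. Bromocriptine stimulates dopamine receptors of the D2 type, metoprolol is a blocker of beta-1 adrenergic receptors, and both doxazosin and tamsulosin are alpha-1 blockers. Nothing in the labels ties a library to its own mouse, so p-values measure the spread between these libraries.

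Libraries of the mixture experiment held 18.5 to 25.8 M counts over genes, and those of the single-drug experiment 12.0 to 22.2 M. Markers of the labelled tissue were present, and photoreceptor markers moved with light. The summed level of 10 rod markers was 66722 to 79668 CPM (counts scaled to a common library size) without light and 37656 to 46135 CPM with light in the mixture experiment. It was, in the single-drug experiment, 74340 to 81177 CPM without light and 25024 to 34236 CPM with light. The rod markers called lower with light were 9 of 10 in the mixture experiment and 10 of 10 in the single-drug experiment, with median log2 changes of -0.90 and -1.26. Cone markers were lower in 6 of 8 and 7 of 8, with sums of 1367 to 1481 CPM without light and 584 to 792 CPM with light in the mixture experiment, and 1469 to 1585 and 446 to 594 CPM in the single-drug experiment. With the drugs, 9 or 10 of the 10 rod markers were called higher than in light, and their sum was at least 52581 CPM in every library. None of the rod markers was at 0 in any group. In bulk tissue, fewer cells of a type and less RNA per cell cannot be told apart, and the part of photoreceptor number in the results that follow was not tested. The sum of 8 Muller glia markers was also lower with light, at 2103 to 3154 CPM without light and 1579 to 1627 CPM with light in the mixture experiment, and 2465 to 2685 and 2049 to 2273 CPM in the single-drug experiment. Of those 8 markers, 1 was called higher and 2 lower in the mixture experiment, and 1 and 1 in the single-drug experiment, none of them at 0. Their sum lay above that of light with BMT at 1897 to 2989 CPM, MDB at 2847 to 3243 CPM, BRM at 3203 to 3501 CPM and MTP at 2418 to 2907 CPM, and overlapped with light for TAM and DOX. The part of Muller glia in the results was not tested either. Lens-fibre markers also varied between libraries, with the sum of 6 markers between 5.36 and 2550.2 CPM. Their median log2 change with light in the mixture experiment was -2.58, and 0 of the 6 were called by edgeR. A lens score of at least 4 (mean log2 CPM of those markers) was found in 16 of 30 libraries, among them all 3 of light in the single-drug experiment, all 3 of MDB and all 3 of BRM.

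Light lowered the glycolytic and lactate genes more often than it raised them. In the mixture experiment 10 of the 35 genes were called lower and 1 higher, at an adjusted p under 0.05 in edgeR. Of all 16007 genes tested there, 5.47% were called lower and 7.75% higher. The single-drug experiment had 17 genes called lower and 2 higher, against 12.6% lower and 11.4% higher of 16249 genes. In either direction, 13.2% of all genes were called in the mixture and 24.0% in the single-drug experiment. The median log2 change of the 35 genes was -0.25 in the mixture and -0.28 in the single-drug experiment, while that of all genes tested was 0.01 and 0.02. Lower in both experiments were Hk2, Gapdh, Pgam1, Pkm, Ldha, Slc16a1, Bsg, Pfkfb2, Ppargc1a and Ppargc1b, and no gene was called higher in both. Lower in the single-drug experiment alone were Gpi1, Pfkl, Aldoa, Pgk1, Eno1, Slc16a3 and Egln1. The genes called higher were Hk1 in the mixture experiment, and Pdk3 and Egln3 in the single-drug experiment. The libraries of the light and the no-light group did not overlap for 17 of the 35 genes in the mixture experiment, where 30.3% of all genes did so, and for 21 in the single-drug experiment, where 40.4% did.

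**Figure D1:**
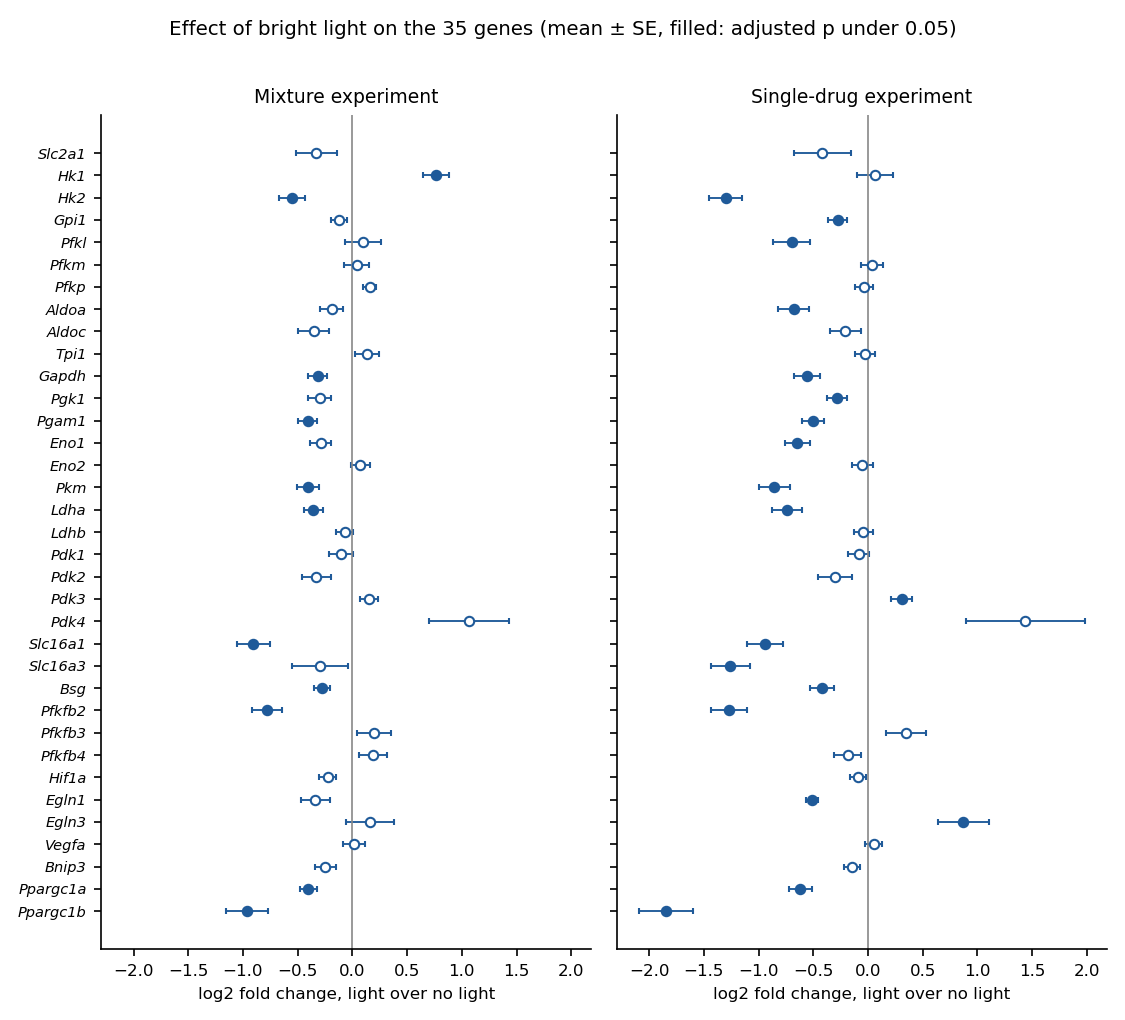
Log2 fold change of each of the 35 genes with light over no light (x axis; points with SE bars, 3 libraries a group), in the mixture experiment on the left and the single-drug experiment on the right; filled points passed an adjusted p of 0.05. Most filled points lie left of 0, from Hk2 to Ppargc1b, while Hk1 lies at 0.76 in the mixture experiment and at 0.06 in the single-drug experiment.

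The calls of the mixture experiment changed when single libraries were left out, which also left fewer libraries in a group. No log2 change behind these calls turned its sign. That of Pkm, for example, ran from -0.49 to -0.35. The count of 11 called genes was 6 without light replicate 1, 7 without light replicate 2 and 7 without no-light replicate 3, and it was 17 in DESeq2. Hk1, Pfkfb2, Pgam1, Ppargc1a, Ppargc1b and Slc16a1 stayed called with each of the 6 libraries left out in turn. The single-drug count of 19 ranged from 15 to 21. No-light replicate 2 of the mixture experiment, which had a lens score of 8.08, was the highest of its group for 24 of the 35 genes. Single libraries of other groups were likewise highest for many genes, at various lens scores. Examples were BRM replicate 2 for 23 genes (score 6.14), TAM replicate 3 for 21 (3.83) and BMT replicate 3 for 19 (-0.52). Such counts were not taken over all genes. The count of called genes in the mixture experiment was 11 without no-light replicate 2 and 11 with the lens score as a covariate. In the single-drug experiment it was 20 with that covariate.

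Whether the light effect itself differed between the experiments was tested in a fit of all 30 libraries. Of 16645 genes, 0% were called by edgeR at an adjusted p under 0.05, and so 0 of the 35. At an unadjusted p under 0.05 there were 2518 genes, 12 of the 35 among them, and DESeq2 called 3 of the 35. The difference, single-drug minus mixture, was -0.70 ± 0.22 (log2 ± SE) for Hk1, -0.75 ± 0.20 for Hk2, -0.80 ± 0.25 for Pfkl and -0.96 ± 0.32 for Slc16a3. Genes called in 1 experiment alone are thus not shown to differ between the experiments.

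The drugs were compared with light in DMSO, and more of the 35 genes were called higher than lower with each of them. BMT gave 16 of the 35 genes called higher and 1 lower, against 7.96% higher and 9.78% lower of all genes tested (17.7% in either direction). MDB gave 12 higher and 3 lower, against 3.70% and 5.93% (9.63% in all). BRM gave 15 higher and 1 lower, against 7.08% and 7.32% (14.4% in all). MTP gave 13 higher and 0 lower, against 5.37% and 4.91% (10.3% in all). TAM gave 7 higher and 0 lower, against 6.60% and 4.00% (10.6% in all). DOX gave 16 higher and 2 lower, against 6.79% and 5.06% (11.9% in all). Drug and light libraries did not overlap for 23 of the 35 genes with BMT, 23 with MDB, 25 with BRM, 22 with MTP, 13 with TAM and 24 with DOX. The same held for 39.1%, 33.2%, 39.5%, 29.7%, 27.7% and 31.3% of all genes, in that order. The median log2 change of the 35 genes was 0.30 with BMT, 0.27 with MDB, 0.30 with BRM, 0.24 with MTP, 0.10 with TAM and 0.27 with DOX. That of all genes tested was -0.02, 0.00, 0.00, -0.01, -0.02 and -0.03 in the same order. Hk2, Pkm, Slc16a1, Pfkfb2 and Ppargc1b were called higher with each of the 6 treatments. Of those calls, that of Ppargc1b with BMT was lost without any 1 of its 6 libraries, and those of Hk2 and Pkm with MDB without any of 5. Pkm lost the MTP call without any of 4 and the TAM call without any of 3. Slc16a1 lost the DOX call without any of 4, and the BRM and TAM calls without either of 2. Pfkfb2 lost the DOX call without 1. With only TAM and light fitted in edgeR, the TAM calls of Hk2, Pkm and Slc16a1 were lost (adjusted p 0.0520 to 0.174). The drug comparisons share the 3 light libraries of their experiment with each other and with the light comparison, so they are not independent of one another. Genes called with 1 drug and not with another are not shown to differ between drugs, which was not tested.

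**Figure D2:**
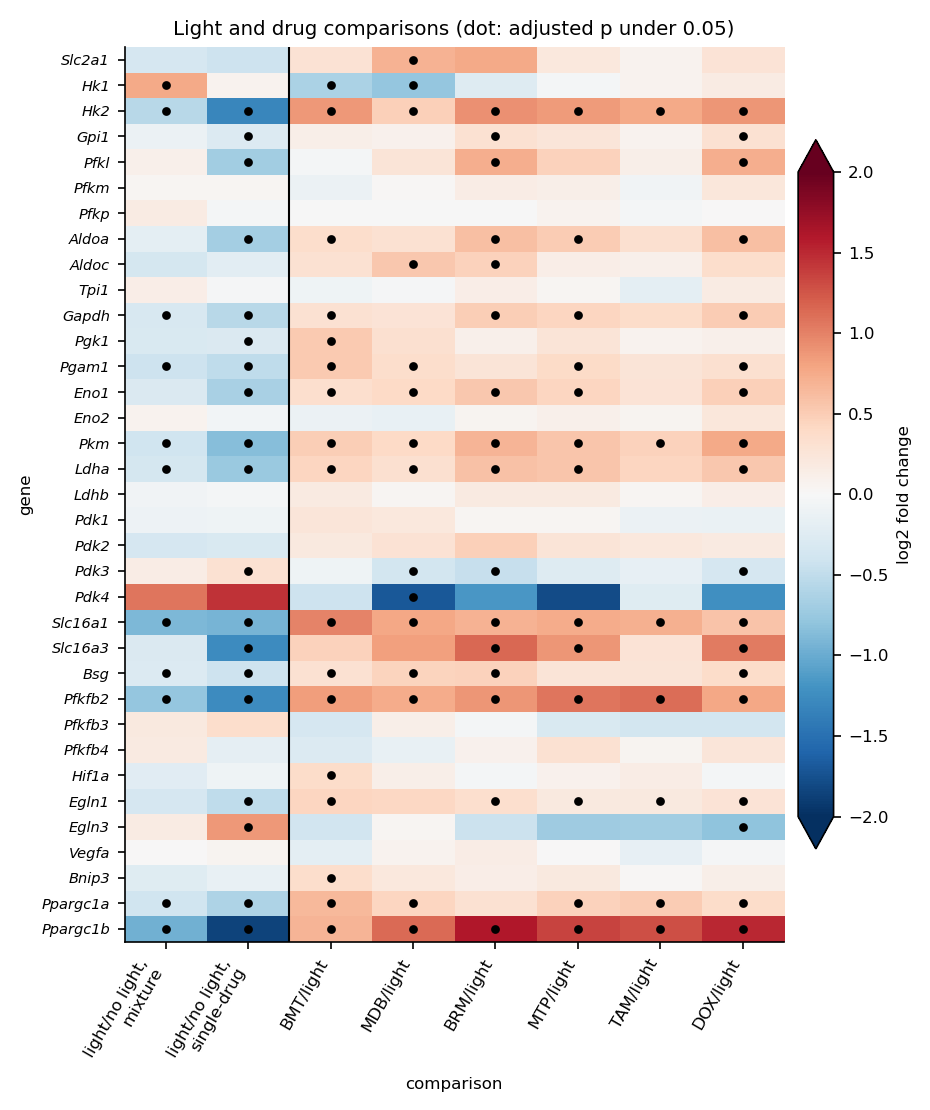
Log2 fold change (colour) of the 35 genes (rows) in the 2 light comparisons and the 6 comparisons of a drug group with light (columns); dots mark an adjusted p under 0.05. The rows of Hk2, Pkm, Slc16a1, Pfkfb2 and Ppargc1b are blue for light and red with dots under all 6 treatments, and the TAM column has the fewest dots, 7.

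Many of the drug calls rested on 3 libraries a group and were lost when 1 was left out, with fewer libraries in the fit. The log2 changes behind these calls kept their sign throughout. The BMT count of 17 was 9 without light replicate 1, 11 without light replicate 3 and 10 without BMT replicate 3. The MDB count of 15 was 6 to 9 with any of the 6 libraries left out (7 without light replicate 1, 9 without light replicate 2, 7 without light replicate 3, 8 without MDB replicate 1, 7 without MDB replicate 2 and 6 without MDB replicate 3). The BRM count of 16 was 8 without light replicate 2 and 9 without BRM replicate 2. The MTP count of 13 was 7 without light replicate 1, 5 without light replicate 2 and 5 without MTP replicate 1. The TAM count of 7 was 4 without light replicate 2 and 3 without TAM replicate 3. The DOX count of 18 was 10 without light replicate 1, 6 without light replicate 2 and 5 without DOX replicate 1. Pfkfb2 stayed called through every such left-out library with BMT, MDB, BRM, MTP and TAM, Ppargc1b with MDB and the 4 single drugs, and Hk2 with BMT and the 4 single drugs. MDB libraries all had a lens score of at least 4 and light replicates 1 and 2 of that experiment did not, and with that score as a covariate MDB gave 8 genes higher and 2 lower, without Aldoc, Eno1, Hk2, Pdk3 and Slc2a1. MTP replicates 1 and 3, with scores of 1.18 and 1.25, lay below the light libraries of their experiment, all at 5.29 or higher. With the covariate MTP gave 9 genes higher and 0 lower, without Aldoa, Eno1, Gapdh and Pgam1. The other called counts with the covariate were 18 for BMT, 18 for BRM, 6 for TAM and 16 for DOX.

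Per kilobase of transcript, the most abundant of the 35 genes without light were Gapdh, Pkm, Aldoa, Eno1 and Ldha. Their mean levels in the mixture experiment were 2379.9, 1213, 1161, 1082 and 696 FPKM (fragments scaled by transcript length and library size). Hk1 stood at 288 FPKM there and Hk2 at 107 FPKM. The lactate carrier Slc16a1 stood at 62.8 FPKM and Slc16a3 at 16.7 FPKM. The least abundant were Pfkfb4 at 2.50, Egln3 at 1.84 and Pdk4 at 0.114 FPKM. Gapdh, Aldoa, Eno1, Ldha, Pgk1, Pgam1 and Tpi1 have near-identical pseudogene copies in the mouse genome, so part of their counts depends on how shared fragments were divided.

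Glucose enters through Slc2a1 (GLUT1), the main glucose transporter of photoreceptors and of the blood-retina barrier. Its levels were 128, 220.0 and 161 CPM without light and 129, 123 and 152 CPM with light in the mixture experiment. The single-drug libraries held 263, 157 and 143 CPM without light and 133, 111 and 178 CPM with light. Light and no-light libraries overlapped in both, with log2 changes of -0.33 ± 0.19 (adjusted p = 0.300) in the mixture experiment and -0.42 ± 0.26 (adjusted p = 0.272) in the single-drug experiment. Slc2a1 was called higher only with MDB, where its libraries were at 247, 198 and 208 CPM, above all 3 light libraries, with a log2 change of 0.69 ± 0.19 (adjusted p = 0.0419). With the lens score as a covariate that change was 0.36 and its adjusted p 0.0765. Slc2a1 lost the MDB call without any 1 of the 6 libraries (adjusted p 0.0505 to 0.152).

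Hexokinases trap glucose in the cell as glucose 6-phosphate: Hk1 is found in most cells, and Hk2 is the form of growing and highly glycolytic cells and of photoreceptor inner segments. Hk2 (ENSMUSG00000000628, chr6:82725025-82774454, minus strand) fell with light in both experiments and was higher with all 6 treatments. Hk2 levels in the mixture experiment were 493, 654 and 521 CPM without light and 366, 415 and 359 CPM with light, and in the single-drug experiment 684, 661 and 716 CPM without light and 308, 244 and 286 CPM with light. All 6 libraries of light in DMSO lay below all 6 without light. The log2 change was -0.55 ± 0.12 (adjusted p = 0.0106) in the mixture experiment and -1.30 ± 0.15 (adjusted p = 0.000105) in the single-drug experiment, a 1.46-fold and a 2.46-fold lower level. The mixture call gave an adjusted p of 0.0508 without light replicate 1. Treated libraries held 744, 587 and 746 CPM with BMT and 531, 513 and 536 CPM with MDB. The single drugs gave 499, 613 and 464 CPM with BRM, 513, 504 and 494 CPM with MTP, 419, 424 and 569 CPM with TAM and 631, 423 and 493 CPM with DOX. Every one of these 18 libraries was above the light libraries of its experiment, and the single-drug ones all stayed below the no-light libraries. Changes from light were 0.87 ± 0.12 with BMT (adjusted p = 0.000721), 0.47 ± 0.12 with MDB (adjusted p = 0.0298), 0.91 ± 0.15 with BRM (adjusted p = 0.00191), 0.85 ± 0.15 with MTP (adjusted p = 0.00310), 0.75 ± 0.15 with TAM (adjusted p = 0.00516) and 0.88 ± 0.15 with DOX (adjusted p = 0.00353), on the log2 scale. Hk2 lost the MDB call without light replicate 1 or 3 or any MDB library (adjusted p 0.0696 to 0.115).

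Hk1 (ENSMUSG00000037012, chr10:62268855-62379908, minus strand) was called higher with light in the mixture experiment and lower with both mixtures than in light. The difference of its light effect between the experiments had an adjusted p of 0.148. In the mixture experiment Hk1 stood at 651, 722 and 757 CPM without light and 1207, 1173 and 1237 CPM with light in DMSO. Each of these light libraries lay above every library without light. That was a log2 change of 0.76 ± 0.12 (adjusted p = 0.00131), or 1.70-fold. Single-drug levels of Hk1 were 812, 772 and 803 CPM without light and 867, 721 and 909 CPM with light, with overlapping groups and a log2 change of 0.06 ± 0.17 (adjusted p = 0.817). Treated libraries held 891, 692 and 752 CPM with BMT and 609.8, 703 and 814 CPM with MDB, all below the light libraries, with log2 changes of -0.63 ± 0.12 with BMT (adjusted p = 0.00399) and -0.77 ± 0.12 with MDB (adjusted p = 0.00171). The single drugs gave 684, 726 and 675 CPM with BRM, 829, 906 and 687 CPM with MTP, 619, 1136 and 861 CPM with TAM and 1033, 914 and 843 CPM with DOX, which overlapped with light, and none of the 4 passed the test. TAM libraries were spread most, from the lowest to the highest of the 12 drug-treated values in that experiment. Of the Hk1 transcripts with at least 5 CPM, Hk1-201 at 1.09 ± 0.23 (adjusted p = 0.0305) and Hk1-017 at 0.81 ± 0.17 (adjusted p = 0.0252) were called higher with light in the mixture experiment. Across all transcripts tested, 2.82% were called in that comparison.

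**Figure D3:**
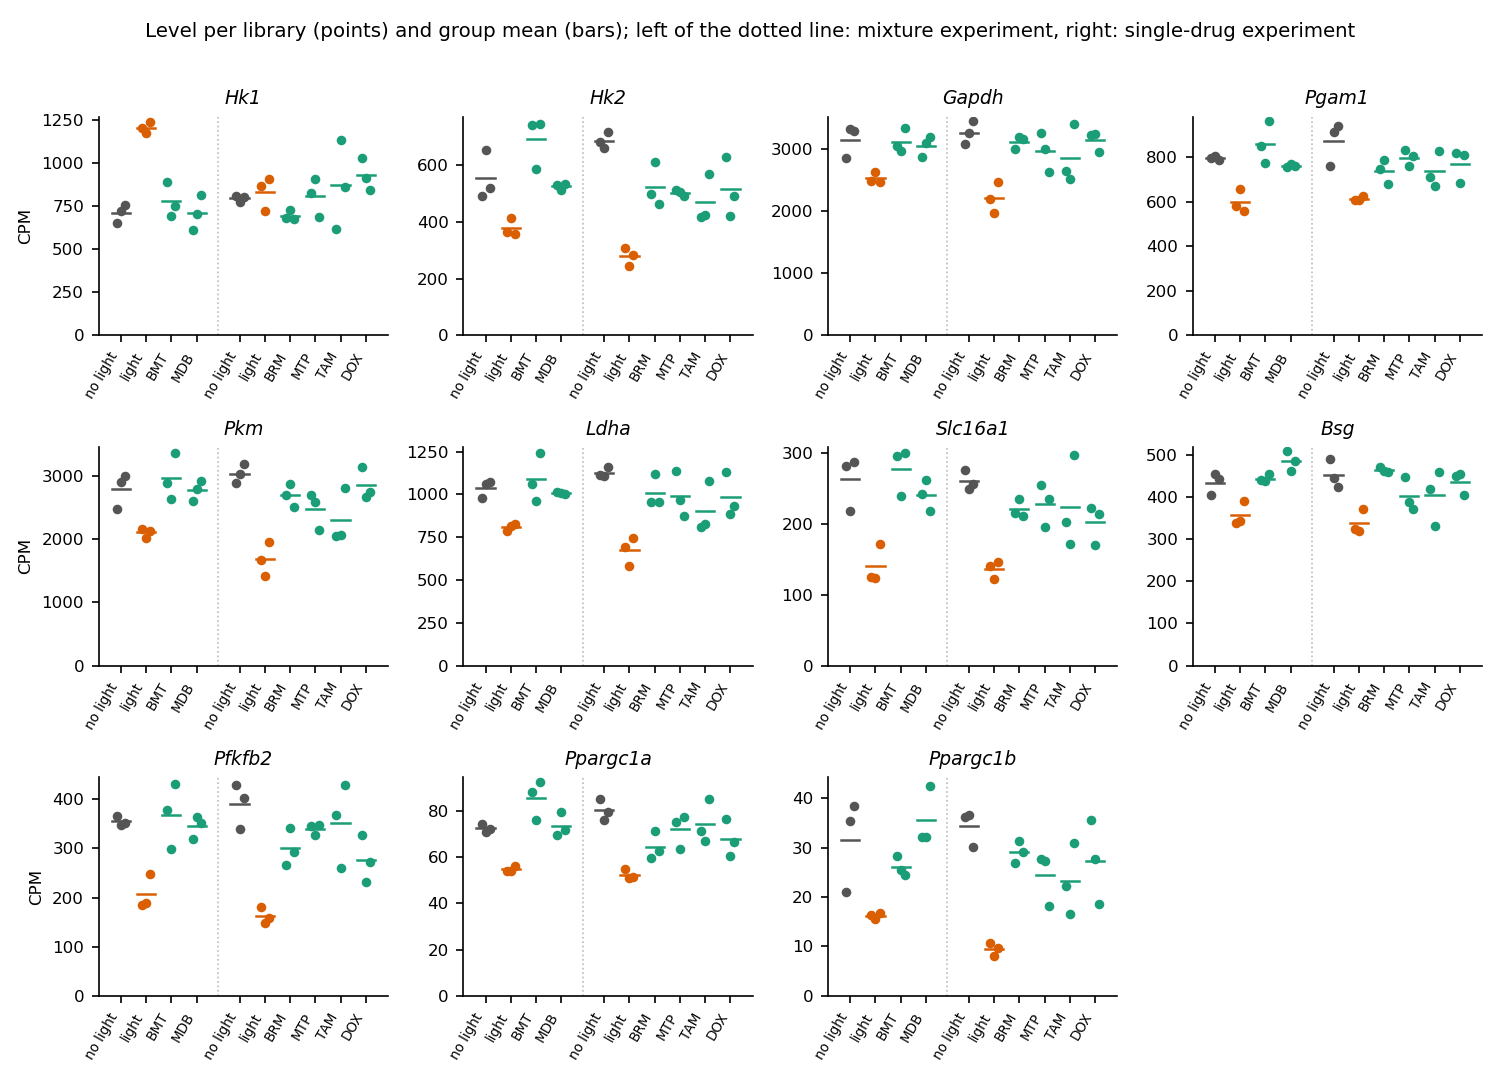
Level in CPM (y axis, from 0) of Hk1, Hk2, Gapdh, Pgam1, Pkm, Ldha, Slc16a1, Bsg, Pfkfb2, Ppargc1a and Ppargc1b in each library (points) with the group mean (line), over the 10 groups (x axis). In all panels but that of Hk1, the 3 light points of each experiment lie below the 3 points without light, and Hk2 reaches its lowest points, 244 to 308 CPM, in the illuminated DMSO group of the single-drug experiment.

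The start of Hk2 is printed because this gene was lower with light and higher with every treatment. The run below holds the 250 bases before its transcription start, at chr6:82774455-82774704 on the minus strand, from RefSeq's table for GRCm38.p6. Capitals mark each ACGTG on either strand (CACGT as read here), the core letters of hypoxia response elements, which also lie inside the E-box CACGTG.
Hk2: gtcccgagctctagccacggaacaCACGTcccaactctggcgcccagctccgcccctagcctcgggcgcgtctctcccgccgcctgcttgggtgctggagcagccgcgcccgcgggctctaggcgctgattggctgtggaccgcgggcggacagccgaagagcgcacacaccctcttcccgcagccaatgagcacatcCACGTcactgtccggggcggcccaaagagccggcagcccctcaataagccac
Such letters were found in 24 of 50 windows of 250 bases that the table holds for 33 of the 35 genes (48.0% of windows, 20 of the 33 genes). Of all 32851 windows in the table, 16.6% held them. GCGTG, the other common form of that core, was in 26 of the 50 windows (52.0%) and in 28.2% of all windows. Genes with several starts give several windows, and a match is a description of letters, not of a bound site.

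Gpi1, which turns glucose 6-phosphate into fructose 6-phosphate, stood at 498, 588 and 547 CPM without light and 491, 524 and 483 CPM with light in the mixture experiment. Single-drug levels were 527, 590.5 and 569.7 CPM without light and 439, 442 and 511 CPM with light. The groups overlapped in the former and not in the latter, and the log2 change was -0.12 ± 0.07 (adjusted p = 0.305) in the mixture experiment and -0.28 ± 0.08 (adjusted p = 0.0248) in the single-drug experiment. The single-drug call was lost with an adjusted p of 0.0910 without no-light replicate 2, 0.0718 without no-light replicate 3, 0.106 without light replicate 1 and 0.110 without light replicate 2. Gpi1 was called higher with BRM at 571, 589 and 555 CPM and with DOX at 582, 567 and 571 CPM, log2 changes of 0.30 ± 0.08 with BRM (adjusted p = 0.0259) and 0.31 ± 0.08 with DOX (adjusted p = 0.0295). Gpi1 lost the BRM call without light replicate 1 or 2 or BRM replicate 1 or 2 (adjusted p 0.0584 to 0.113) and the DOX call without light replicate 1 or 2 or DOX replicate 1 or 2 (adjusted p 0.0564 to 0.121). Pfkl, the liver-type subunit of phosphofructokinase, which commits sugar to glycolysis, stood at 161, 273 and 234 CPM without light and 239, 261 and 214 CPM with light in the mixture experiment. In the single-drug experiment it stood at 236, 282 and 268 CPM without light and 152, 139 and 194 CPM with light, with all light libraries below. Its log2 change was 0.10 ± 0.16 (adjusted p = 0.764) in the mixture experiment and -0.70 ± 0.17 (adjusted p = 0.00804) in the single-drug experiment. It was called higher with BRM at 241, 291 and 270.3 CPM and with DOX at 306, 272 and 222 CPM, log2 changes of 0.73 ± 0.17 with BRM (adjusted p = 0.0119) and 0.72 ± 0.17 with DOX (adjusted p = 0.0156). Pfkl lost the BRM call without light replicate 2 or BRM replicate 2 (adjusted p 0.0571 to 0.0661) and the DOX call without light replicate 1 or 2 or DOX replicate 1 (adjusted p 0.0591 to 0.0912). The muscle and platelet subunits Pfkm and Pfkp were not called anywhere, and their log2 changes over the 8 comparisons lay between -0.12 and 0.22 for Pfkm and between -0.04 and 0.16 for Pfkp.

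Aldolases split fructose 1,6-bisphosphate, Aldoa in most cells and Aldoc mainly in neural cells. Aldoa stood at 1395, 1811 and 1676 CPM without light and 1389, 1595 and 1295 CPM with light in the mixture experiment. For the single-drug libraries the levels were 1627, 1977 and 1986 CPM without light and 1136, 1023 and 1335 CPM with light, where the groups did not overlap. Its log2 change was -0.19 ± 0.11 (adjusted p = 0.300) in the mixture experiment and -0.68 ± 0.14 (adjusted p = 0.00270) in the single-drug experiment. Aldoa libraries with the drugs stood at 1892, 1678 and 1887 CPM with BMT and 1726, 1746 and 1833 CPM with MDB. Single-drug treatment gave 1683, 1905 and 1702 CPM with BRM, 1835, 1620.2 and 1522 CPM with MTP, 1225, 1352 and 1789 CPM with TAM and 1954, 1703 and 1673 CPM with DOX. TAM alone overlapped with light, and calls were made for 0.35 ± 0.11 with BMT (adjusted p = 0.0459), 0.60 ± 0.14 with BRM (adjusted p = 0.0113), 0.51 ± 0.14 with MTP (adjusted p = 0.0296) and 0.61 ± 0.14 with DOX (adjusted p = 0.0133). Aldoa lost the BMT call without light replicate 1 or 3 or BMT replicate 1 or 3 (adjusted p 0.116 to 0.144) and the BRM call without light replicate 2 or BRM replicate 2 (adjusted p 0.0564 to 0.0646). Aldoa also lost the MTP call without light replicate 1 or 2 or MTP replicate 1 or 2 (adjusted p 0.0566 to 0.130) and the DOX call without light replicate 2 or DOX replicate 1 (adjusted p 0.0761 to 0.0776). Aldoc stood at 311, 472 and 345 CPM without light and 279, 312 and 290.3 CPM with light in the mixture experiment. The other experiment gave 409, 376 and 344 CPM without light and 322, 296 and 360.4 CPM with light, and neither light comparison passed the test, at -0.35 ± 0.14 (adjusted p = 0.126) and -0.21 ± 0.14 (adjusted p = 0.318). It was called higher with MDB at 454, 406 and 426 CPM and with BRM at 439.8, 437 and 474 CPM, log2 changes of 0.54 ± 0.14 with MDB (adjusted p = 0.0300) and 0.46 ± 0.14 with BRM (adjusted p = 0.0387). All 6 of those libraries had a lens score of at least 4, as did the light libraries that BRM was compared with. The part of lens tissue in the Aldoc values was not tested further than by the covariate. With the covariate the MDB change of Aldoc was 0.33, with an adjusted p of 0.0854, while the BRM call of Aldoc held. Aldoc lost the MDB call without any 1 of the 6 libraries (adjusted p 0.0605 to 0.116) and the BRM call without light replicate 1 or 2 or any BRM library (adjusted p 0.0672 to 0.137).

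In the lower pathway, Gapdh makes NADH while it oxidises glyceraldehyde 3-phosphate. Gapdh (ENSMUSG00000057666, chr6:125161715-125166467, minus strand) stood at 2840.5, 3312 and 3276 CPM without light and 2475, 2619 and 2468 CPM with light in the mixture experiment. The single-drug libraries held 3065, 3245 and 3434 CPM without light and 2187, 1965 and 2460.3 CPM with light. Light libraries lay below in both, with log2 changes of -0.32 ± 0.08 (adjusted p = 0.0269) in the mixture experiment and -0.56 ± 0.12 (adjusted p = 0.00299) in the single-drug experiment. The mixture call was lost with an adjusted p of 0.106 without no-light replicate 3, 0.104 without light replicate 1, 0.0542 without light replicate 2 and 0.0759 without light replicate 3. With the drugs Gapdh stood at 3047, 2958 and 3325 CPM with BMT and 2863, 3092 and 3181 CPM with MDB. With 1 drug alone the levels were 2986, 3183 and 3149 CPM with BRM, 3244, 2996 and 2621 CPM with MTP, 2635, 2504 and 3392 CPM with TAM and 3223, 3235 and 2939 CPM with DOX. All these libraries lay above those of light, and calls were made for 0.30 ± 0.08 with BMT (adjusted p = 0.0291), 0.49 ± 0.12 with BRM (adjusted p = 0.0122), 0.42 ± 0.12 with MTP (adjusted p = 0.0320) and 0.51 ± 0.12 with DOX (adjusted p = 0.0138). Gapdh lost the BMT call without any light library or BMT replicate 1 or 3 (adjusted p 0.0560 to 0.106) and the BRM call without light replicate 2 or BRM replicate 2 (adjusted p 0.0504 to 0.0637). Gapdh also lost the MTP call without light replicate 1 or 2 or MTP replicate 1 or 2 (adjusted p 0.0756 to 0.133) and the DOX call without light replicate 2 or DOX replicate 1 (adjusted p 0.0657 to 0.0726).

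Pgam1, the phosphoglycerate mutase of the lower pathway (ENSMUSG00000011752, chr19:41911871-41918664, plus strand), stood at 797, 805 and 786 CPM without light and 579.7, 658 and 559 CPM with light in the mixture experiment. Single-drug levels of Pgam1 were 762, 914 and 941 CPM without light and 609, 608 and 627 CPM with light. The no-light libraries of the mixture experiment lay close together, groups did not overlap in either experiment, and the log2 change was -0.41 ± 0.09 (adjusted p = 0.00905) in the mixture experiment and -0.50 ± 0.10 (adjusted p = 0.00207) in the single-drug experiment. Treated levels were 851, 774 and 961 CPM with BMT and 758, 769 and 759.7 CPM with MDB. The 4 single-drug groups held 748, 788 and 679.8 CPM with BRM, 831, 759 and 805 CPM with MTP, 714, 673 and 830.0 CPM with TAM and 817, 686 and 809 CPM with DOX, all above light, with calls for 0.53 ± 0.09 with BMT (adjusted p = 0.00212), 0.35 ± 0.09 with MDB (adjusted p = 0.0279), 0.38 ± 0.10 with MTP (adjusted p = 0.0256) and 0.33 ± 0.10 with DOX (adjusted p = 0.0466). Pgam1 lost the MDB call without light replicate 1 or 3 or any MDB library (adjusted p 0.0732 to 0.115) and the MTP call without any light library or MTP replicate 1 or 3 (adjusted p 0.0519 to 0.0917). Pgam1 also lost the DOX call without any light library or DOX replicate 1 or 3 (adjusted p 0.0580 to 0.183). Pgk1, the kinase that makes the first ATP of the pathway, had log2 changes with light of -0.30 ± 0.11 (adjusted p = 0.0899) in the mixture experiment and -0.28 ± 0.09 (adjusted p = 0.0367) in the single-drug experiment. It stood at 748, 877 and 701 CPM without light and 597, 670.0 and 624 CPM with light and at 822, 858 and 964 CPM without light and 748, 733 and 694 CPM with light, with light lower in all 6 libraries, but the single-drug call was lost when any 1 of 5 of the 6 libraries was left out. Those left-out adjusted p values were 0.0604 without no-light replicate 2, 0.161 without no-light replicate 3, 0.0690 without light replicate 1, 0.0920 without light replicate 2 and 0.109 without light replicate 3. Pgk1 was called higher with BMT alone, 0.52 ± 0.11 (adjusted p = 0.00629), at 845, 834 and 1037 CPM. Tpi1, which interconverts the triose phosphates, was not called anywhere, with log2 changes between -0.20 and 0.16.

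Enolases make phosphoenolpyruvate, Eno1 in most cells and Eno2 in neurons. Eno1 stood at 1792, 2327 and 2065 CPM without light and 1671, 1751 and 1631 CPM with light in the mixture experiment. Single-drug levels were 2181, 2353 and 2444 CPM without light and 1469, 1372 and 1622 CPM with light, without overlap in either. Its log2 change was -0.29 ± 0.10 (adjusted p = 0.0742) in the mixture experiment and -0.64 ± 0.11 (adjusted p = 0.000911) in the single-drug experiment. With the drugs Eno1 stood at 2108, 1982 and 2269 CPM with BMT and 2120.1, 2212 and 2323 CPM with MDB. The single drugs gave 2076, 2298 and 2078 CPM with BRM, 2202, 1959 and 1865 CPM with MTP, 1658, 1578 and 2158 CPM with TAM and 2234, 2019 and 1989 CPM with DOX. TAM libraries overlapped with light, and the 5 calls were 0.33 ± 0.10 with BMT (adjusted p = 0.0369), 0.40 ± 0.10 with MDB (adjusted p = 0.0243), 0.53 ± 0.11 with BRM (adjusted p = 0.00716), 0.43 ± 0.11 with MTP (adjusted p = 0.0239) and 0.48 ± 0.11 with DOX (adjusted p = 0.0145). Eno1 lost the BMT call without any light library or BMT replicate 1 or 3 (adjusted p 0.0697 to 0.114) and the MDB call without any light library or MDB replicate 2 or 3 (adjusted p 0.0569 to 0.0927). Eno1 also lost the MTP call without light replicate 1 or 2 or MTP replicate 1 (adjusted p 0.0644 to 0.104) and the DOX call without light replicate 2 or DOX replicate 1 (adjusted p 0.0737 to 0.0800). Eno2 was not called anywhere, and its log2 changes lay between -0.15 and 0.22. Its light values were 435, 507 and 486 CPM without light and 492, 542 and 468 CPM with light in the mixture experiment, with overlapping groups.

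Pyruvate kinase makes pyruvate and ATP in the last step, and the gene Pkm yields the Pkm1 or the Pkm2 form by choosing 1 of a pair of exons. Pkm (ENSMUSG00000032294, chr9:59656368-59679375, plus strand) stood at 2474, 2902 and 3003 CPM without light and 2169, 2023 and 2134 CPM with light in the mixture experiment. For the single-drug libraries the levels were 2888, 3031 and 3197 CPM without light and 1670.0, 1421 and 1950.3 CPM with light. All light libraries lay below, with log2 changes of -0.41 ± 0.10 (adjusted p = 0.0236) in the mixture experiment and -0.85 ± 0.14 (adjusted p = 0.000534) in the single-drug experiment. The mixture call was lost with an adjusted p of 0.101 without no-light replicate 3, 0.0656 without light replicate 1, 0.0890 without light replicate 2 and 0.0554 without light replicate 3. With the drugs Pkm stood at 2894, 2638 and 3361 CPM with BMT and 2605, 2802 and 2921 CPM with MDB. Single-drug treatment gave 2699, 2872 and 2516 CPM with BRM, 2700.1, 2585 and 2149 CPM with MTP, 2055, 2061 and 2818 CPM with TAM and 3142, 2673 and 2747 CPM with DOX. Every treated library was above light, and the calls were 0.49 ± 0.10 with BMT (adjusted p = 0.00806), 0.40 ± 0.10 with MDB (adjusted p = 0.0331), 0.68 ± 0.14 with BRM (adjusted p = 0.00564), 0.56 ± 0.14 with MTP (adjusted p = 0.0179), 0.46 ± 0.14 with TAM (adjusted p = 0.0446) and 0.76 ± 0.14 with DOX (adjusted p = 0.00449). Pkm lost the MDB call without any light library or MDB replicate 2 or 3 (adjusted p 0.0708 to 0.124) and the MTP call without light replicate 1 or 2 or MTP replicate 1 or 2 (adjusted p 0.0512 to 0.0864). Pkm also lost the TAM call without light replicate 1 or 2 or TAM replicate 3 (adjusted p 0.107 to 0.257).

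The exons that tell the Pkm forms apart are printed because they tell apart the transcripts whose values follow. Both have 167 bases and are read from the plus strand of chromosome 9 in GRCm38, at chr9:59675029-59675195 for the Pkm1 exon and chr9:59675568-59675734 for the Pkm2 exon. Capitals mark the 64 positions where the aligned exons differ, so that 61.7% are identical, and each form encodes 531 amino acids.
Pkm1 exon: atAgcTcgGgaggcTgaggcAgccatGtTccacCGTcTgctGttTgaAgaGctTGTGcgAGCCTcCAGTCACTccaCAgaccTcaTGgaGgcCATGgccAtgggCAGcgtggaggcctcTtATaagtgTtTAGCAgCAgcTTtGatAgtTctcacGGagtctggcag
Pkm2 exon: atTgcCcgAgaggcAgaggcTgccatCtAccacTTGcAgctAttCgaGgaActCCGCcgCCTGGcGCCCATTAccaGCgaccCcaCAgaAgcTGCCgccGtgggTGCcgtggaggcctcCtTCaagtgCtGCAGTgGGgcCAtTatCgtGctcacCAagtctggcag
The transcript with the Pkm2 exon, Pkm-201, stood at 1644, 1857 and 2090.1 CPM without light and 1369, 1169.8 and 1349 CPM with light in the mixture experiment. In the single-drug experiment it stood at 2021, 2149.9 and 2189.6 CPM and 926, 719 and 1116 CPM. The transcript with the Pkm1 exon, Pkm-202, stood at 843, 1058 and 919.7 and 799, 879.9 and 763 CPM in the mixture experiment. Its single-drug values were 839.5, 899 and 983 CPM without light and 752, 712 and 872 CPM with light. Pkm-201 was lower in every library of light in DMSO than in those without light, while Pkm-202 overlapped in both experiments. Pkm-201 was called in both experiments, -0.52 ± 0.12 (adjusted p = 0.0482) and -1.20 ± 0.19 (adjusted p = 0.00174), against 2.82% and 5.12% of all transcripts. Pkm-202 gave -0.21 ± 0.12 (adjusted p = 0.521) and -0.22 ± 0.10 (adjusted p = 0.286). The log2 ratio of Pkm-201 to Pkm-202 counts was 0.99 ± 0.19 without light and 0.67 ± 0.23 with light in the mixture experiment (SD, n = 3). With BMT the ratio was 0.94 ± 0.12, and with MDB 1.26 ± 0.31. It was 1.23 ± 0.06 and 0.22 ± 0.18 in the single-drug experiment, and 0.98 ± 0.17 with BRM, 0.74 ± 0.29 with MTP, 0.81 ± 0.26 with TAM and 0.89 ± 0.25 with DOX. This ratio was chosen after its values were seen and was not tested, and the split of fragments from shared exons between transcripts is the estimate of eXpress.

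**Figure D4:**
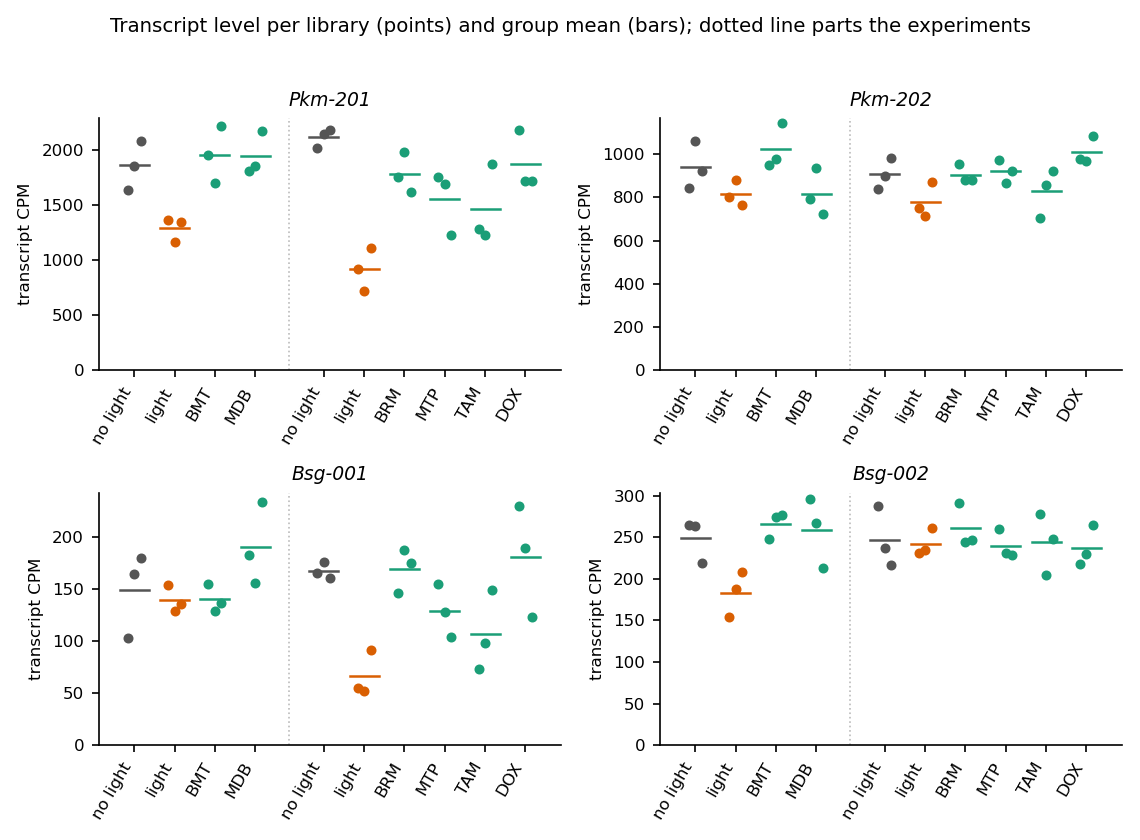
Level in CPM (y axis, from 0) of the transcripts Pkm-201 (Pkm2 exon), Pkm-202 (Pkm1 exon), Bsg-001 (with the extra exon) and Bsg-002 (without it) in each library (points) with the group mean (line), over the 10 groups (x axis). Pkm-201 falls to 719 to 1116 CPM in the illuminated DMSO group of the single-drug experiment while Pkm-202 stays at 712 to 872 CPM, and Bsg-001 falls there to 52.4 to 91.3 CPM.

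Lactate dehydrogenase turns pyruvate into lactate and restores the NAD that Gapdh needs, with Ldha favouring lactate. Ldha (ENSMUSG00000063229, chr7:46841475-46855627, plus strand) stood at 976, 1061 and 1072 CPM without light and 787, 816 and 826 CPM with light in the mixture experiment. The other experiment gave 1115, 1108 and 1159.8 CPM without light and 696, 581 and 746 CPM with light. Light libraries lay below in both, and the log2 change was -0.36 ± 0.09 (adjusted p = 0.0218) in the mixture experiment and -0.74 ± 0.14 (adjusted p = 0.00114) in the single-drug experiment. The mixture call was lost with an adjusted p of 0.0846 without no-light replicate 3, 0.0887 without light replicate 1 and 0.0640 without light replicate 2. With the drugs Ldha stood at 1063, 960.4 and 1243 CPM with BMT and 1016, 1010.2 and 1005 CPM with MDB. With 1 drug alone the levels were 957, 1119 and 955 CPM with BRM, 1137, 967 and 872 CPM with MTP, 811, 829 and 1078 CPM with TAM and 1129.7, 888 and 934 CPM with DOX. No treated library was as low as the light libraries, and the calls were 0.43 ± 0.09 with BMT (adjusted p = 0.00773), 0.32 ± 0.09 with MDB (adjusted p = 0.0457), 0.58 ± 0.13 with BRM (adjusted p = 0.0107), 0.56 ± 0.13 with MTP (adjusted p = 0.0163) and 0.55 ± 0.13 with DOX (adjusted p = 0.0186). Ldha lost the MDB call without any 1 of the 6 libraries (adjusted p 0.0823 to 0.162) and the BRM call without light replicate 2 or BRM replicate 2 (adjusted p 0.0586 to 0.0595). Ldha also lost the MTP call without light replicate 2 or MTP replicate 1 (adjusted p 0.0798 to 0.0821) and the DOX call without light replicate 2 or DOX replicate 1 (adjusted p 0.0959 to 0.108). Ldhb, the form of oxidative tissues, was not called anywhere. It stood at 122, 133 and 121 CPM without light and 117, 129 and 112 CPM with light in the mixture experiment. The single-drug libraries held 124, 126 and 131 CPM without light and 121, 118 and 130.2 CPM with light, with overlapping groups.
The first of the windows before a start of Ldha, at chr7:46845554-46845803 on the plus strand, is printed because it held the most ACGTG or CACGT of the 50 windows, 5, in capitals, with each CACGTG counted once on either strand.
Ldha: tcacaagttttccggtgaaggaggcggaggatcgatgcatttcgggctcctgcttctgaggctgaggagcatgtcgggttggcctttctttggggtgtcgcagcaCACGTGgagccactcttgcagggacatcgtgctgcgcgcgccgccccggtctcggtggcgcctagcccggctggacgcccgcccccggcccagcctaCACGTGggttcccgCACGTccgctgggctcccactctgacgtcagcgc

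Monocarboxylate carriers move lactate across membranes, Slc16a1 (MCT1) in photoreceptors and glia among others and Slc16a3 (MCT4) in strongly glycolytic cells. Slc16a1 (ENSMUSG00000032902, chr3:104638668-104658462, plus strand) stood at 282, 219 and 288 CPM without light and 125, 124 and 173 CPM with light in the mixture experiment. Single-drug levels were 276, 250.2 and 257 CPM without light and 141, 123 and 146 CPM with light. Every light library lay below every library without light, with log2 changes of -0.90 ± 0.15 (adjusted p = 0.00215) in the mixture experiment and -0.94 ± 0.16 (adjusted p = 0.000864) in the single-drug experiment, or 1.87-fold and 1.91-fold lower. With the drugs Slc16a1 stood at 296, 239 and 300.0 CPM with BMT and 243, 263 and 219 CPM with MDB. The 4 single-drug groups held 215, 235 and 212 CPM with BRM, 255, 196 and 235 CPM with MTP, 203, 172 and 298 CPM with TAM and 223, 171 and 214 CPM with DOX. All treated libraries exceeded light, and the calls were 0.99 ± 0.15 with BMT (adjusted p = 0.00131), 0.78 ± 0.15 with MDB (adjusted p = 0.00670), 0.69 ± 0.16 with BRM (adjusted p = 0.0116), 0.74 ± 0.16 with MTP (adjusted p = 0.00937), 0.72 ± 0.16 with TAM (adjusted p = 0.0113) and 0.57 ± 0.16 with DOX (adjusted p = 0.0350). Slc16a1 lost the BRM call without light replicate 2 or BRM replicate 2 (adjusted p 0.0530 to 0.0601) and the TAM call without light replicate 2 or TAM replicate 3 (adjusted p 0.0599 to 0.0673). Slc16a1 also lost the DOX call without light replicate 1 or 2 or DOX replicate 1 or 3 (adjusted p 0.0678 to 0.150).
The 250 bases before the start of Slc16a1, at chr3:104638414-104638663, are printed as a pair to those of Hk2, with ACGTG and CACGT in capitals.
Slc16a1: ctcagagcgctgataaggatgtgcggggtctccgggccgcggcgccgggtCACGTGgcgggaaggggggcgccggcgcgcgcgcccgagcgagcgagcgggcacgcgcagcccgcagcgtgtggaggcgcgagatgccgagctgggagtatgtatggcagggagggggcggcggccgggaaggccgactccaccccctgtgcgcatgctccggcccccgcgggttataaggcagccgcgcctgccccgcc

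Slc16a3 stood at 21.2, 50.8 and 30.0 CPM without light and 27.2, 29.0 and 26.9 CPM with light in the mixture experiment, where no-light replicate 2 was the highest and the groups overlapped. In the single-drug experiment it stood at 47.4, 48.4 and 46.5 CPM without light and 19.4, 16.2 and 23.9 CPM with light, with the light libraries far below. The log2 change was -0.30 ± 0.26 (adjusted p = 0.512) in the mixture experiment and -1.26 ± 0.18 (adjusted p = 0.000201) in the single-drug experiment, and the difference between the experiments had an adjusted p of 0.163. Slc16a3 levels with the drugs were 41.0, 34.3 and 39.3 CPM with BMT and 52.8, 36.7 and 56.6 CPM with MDB. The single drugs gave 40.0, 48.5 and 44.0 CPM with BRM, 41.5, 35.2 and 32.9 CPM with MTP, 21.8, 22.4 and 28.0 CPM with TAM and 53.8, 36.1 and 33.1 CPM with DOX. TAM libraries overlapped with light, and the calls were 1.15 ± 0.18 with BRM (adjusted p = 0.00144), 0.88 ± 0.18 with MTP (adjusted p = 0.00563) and 1.05 ± 0.18 with DOX (adjusted p = 0.00353).

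Bsg encodes basigin, which carries these transporters to the membrane and has a retina-specific long form with an added immunoglobulin domain. Bsg (ENSMUSG00000023175, chr10:79704491-79711969, plus strand) stood at 404, 455 and 442 CPM without light and 338, 343 and 391 CPM with light in the mixture experiment. For the single-drug libraries the levels were 491, 445 and 424 CPM without light and 324, 320.1 and 372 CPM with light. Light libraries lay below in both, and the log2 change was -0.28 ± 0.08 (adjusted p = 0.0314) in the mixture experiment and -0.42 ± 0.11 (adjusted p = 0.0110) in the single-drug experiment. The mixture call was lost with an adjusted p of 0.0581 without no-light replicate 2, 0.103 without no-light replicate 3, 0.134 without light replicate 1 and 0.114 without light replicate 2. With the drugs Bsg stood at 439.9, 437 and 454 CPM with BMT and 509, 461 and 484 CPM with MDB. Single-drug treatment gave 471, 461 and 459 CPM with BRM, 448, 389 and 371 CPM with MTP, 419, 332 and 460.5 CPM with TAM and 449, 454 and 405 CPM with DOX. MTP and TAM overlapped with light, and the calls were 0.31 ± 0.08 with BMT (adjusted p = 0.0165), 0.44 ± 0.08 with MDB (adjusted p = 0.00338), 0.45 ± 0.11 with BRM (adjusted p = 0.0130) and 0.36 ± 0.11 with DOX (adjusted p = 0.0427). Bsg lost the BMT call without light replicate 1 or 2 or BMT replicate 3 (adjusted p 0.0513 to 0.0794) and the BRM call without light replicate 2 (adjusted p = 0.0553). Bsg also lost the DOX call without light replicate 1 or 2 or DOX replicate 1 or 2 (adjusted p 0.105 to 0.148).
The FPKM setting with limma takes 1 transcript per gene, that with the highest mean, so it does not measure the whole gene. In it neither light call of Bsg held, with -0.43 (adjusted p = 0.101) in the mixture experiment and -0.0083 (adjusted p = 0.975) in the single-drug experiment. Both values lay near those of Bsg-002 given below, and the single-drug one lay far from that of Bsg-001. The same setting gave 0.10 with BRM (adjusted p = 0.676), -0.053 with DOX (adjusted p = 0.842) and 0.51 with MDB (adjusted p = 0.0689).
Bsg-001 encodes 389 amino acids and has an exon of 348 bases, at chr10:79708697-79709044 on the plus strand of GRCm38, that Bsg-002 (273 amino acids) lacks. The first 120 bases of that exon are printed because they mark the transcript that was called.
Bsg extra exon: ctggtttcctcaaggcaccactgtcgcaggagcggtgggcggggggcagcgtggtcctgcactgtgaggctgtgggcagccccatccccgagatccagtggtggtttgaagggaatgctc
Bsg-001 stood at 103, 165 and 179.9 CPM without light and 154, 129 and 136 CPM with light in the mixture experiment, with overlapping groups. In the single-drug experiment it stood at 166, 176 and 161 CPM and 54.9, 52.4 and 91.3 CPM, with all light libraries below. The log2 changes were -0.09 ± 0.20 (adjusted p = 0.928) and -1.34 ± 0.28 (adjusted p = 0.0103). Bsg-002 gave -0.44 ± 0.14 (adjusted p = 0.154) and -0.03 ± 0.13 (adjusted p = 0.963). The log2 ratio of Bsg-001 to Bsg-002 counts was -0.55 ± 0.21 without light and -1.92 ± 0.35 with light in the single-drug experiment (SD, n = 3). In the mixture experiment it was -0.78 ± 0.55 and -0.38 ± 0.34. That ratio too was chosen after its values were seen, and it was not tested.

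Pfkfb enzymes make and break fructose 2,6-bisphosphate, the main activator of phosphofructokinase. Pfkfb2 (ENSMUSG00000026409, chr1:130689182-130729253, minus strand) stood at 367, 347 and 352 CPM without light and 185, 189.9 and 247 CPM with light in the mixture experiment. The other experiment gave 429, 340.2 and 403 CPM without light and 182, 148 and 158 CPM with light. Light libraries lay below all those without light, with log2 changes of -0.78 ± 0.14 (adjusted p = 0.00292) in the mixture experiment and -1.27 ± 0.16 (adjusted p = 0.000142) in the single-drug experiment, or 1.71-fold and 2.40-fold lower. With the drugs Pfkfb2 stood at 378, 298 and 431 CPM with BMT and 320.0, 363 and 352 CPM with MDB. With 1 drug alone the levels were 266, 341 and 293 CPM with BRM, 345, 328 and 348 CPM with MTP, 367, 260.2 and 429 CPM with TAM and 327, 232 and 273 CPM with DOX. Every treated library exceeded light, and the calls were 0.83 ± 0.14 with BMT (adjusted p = 0.00194), 0.74 ± 0.14 with MDB (adjusted p = 0.00510), 0.89 ± 0.16 with BRM (adjusted p = 0.00352), 1.07 ± 0.16 with MTP (adjusted p = 0.00169), 1.11 ± 0.16 with TAM (adjusted p = 0.00114) and 0.77 ± 0.16 with DOX (adjusted p = 0.00901). Pfkfb2 lost the DOX call without DOX replicate 1 (adjusted p = 0.0618). Pfkfb3 and Pfkfb4 were not called anywhere. Pfkfb3 stood at 22.6, 29.8 and 20.6 CPM without light and 27.5, 29.1 and 27.0 CPM with light in the mixture experiment. The single-drug libraries held 25.1, 25.0 and 28.4 CPM without light and 33.1, 34.5 and 32.6 CPM with light, a log2 change of 0.20 ± 0.16 (adjusted p = 0.467) in the mixture experiment and 0.35 ± 0.18 (adjusted p = 0.185) in the single-drug experiment. Pfkfb4 changes with light were 0.19 ± 0.13 and -0.19 ± 0.13.

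Pyruvate dehydrogenase kinases switch off the enzyme that feeds pyruvate to mitochondria. Pdk3 stood at 45.8, 37.3 and 43.7 CPM without light and 48.2, 47.7 and 45.2 CPM with light in the mixture experiment. Single-drug levels were 44.1, 38.2 and 44.4 CPM without light and 53.6, 53.2 and 49.96 CPM with light. The groups overlapped in the former, and light lay above in the latter, with log2 changes of 0.15 ± 0.08 (adjusted p = 0.271) in the mixture experiment and 0.31 ± 0.09 (adjusted p = 0.0239) in the single-drug experiment. The single-drug call was lost with an adjusted p of 0.108 without no-light replicate 2, 0.0855 without light replicate 1 and 0.0870 without light replicate 2. With the drugs Pdk3 stood at 45.0, 40.8 and 46.8 CPM with BMT and 35.8, 37.8 and 36.3 CPM with MDB. The 4 single-drug groups held 38.1, 40.0 and 36.0 CPM with BRM, 44.1, 41.4 and 45.1 CPM with MTP, 46.1, 51.2 and 42.0 CPM with TAM and 39.9, 37.8 and 46.4 CPM with DOX. It was called lower for -0.36 ± 0.08 with MDB (adjusted p = 0.0179), -0.46 ± 0.09 with BRM (adjusted p = 0.00536) and -0.34 ± 0.09 with DOX (adjusted p = 0.0291). Pdk3 lost the MDB call without light replicate 1 or 2 or MDB replicate 1 or 3 (adjusted p 0.0659 to 0.0743) and the DOX call without light replicate 1 or 2 or DOX replicate 1 or 2 (adjusted p 0.0997 to 0.139). With the lens score as a covariate its MDB change was -0.23 (adjusted p = 0.0623). Pdk4 was at the edge of detection, with 0.457, 0.445 and 0.238 CPM without light and 0.658, 0.724 and 1.03 CPM with light in the mixture experiment. For the single-drug libraries the levels were 0.705, 0.139 and 0.263 CPM without light and 0.937, 0.754 and 1.33 CPM with light. Neither light comparison of Pdk4 passed the test, at 1.07 ± 0.36 (adjusted p = 0.0799) and 1.44 ± 0.54 (adjusted p = 0.0667). It was called lower with MDB, -1.70 ± 0.38 (adjusted p = 0.0155), at 0.231, 0.256 and 0.242 CPM. Pdk4 lost the MDB call without light replicate 3 or any MDB library (adjusted p 0.0566 to 0.0677). Pdk1 and Pdk2 were not called anywhere, and their log2 changes with light lay between -0.33 and -0.08.

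**Figure D5:**
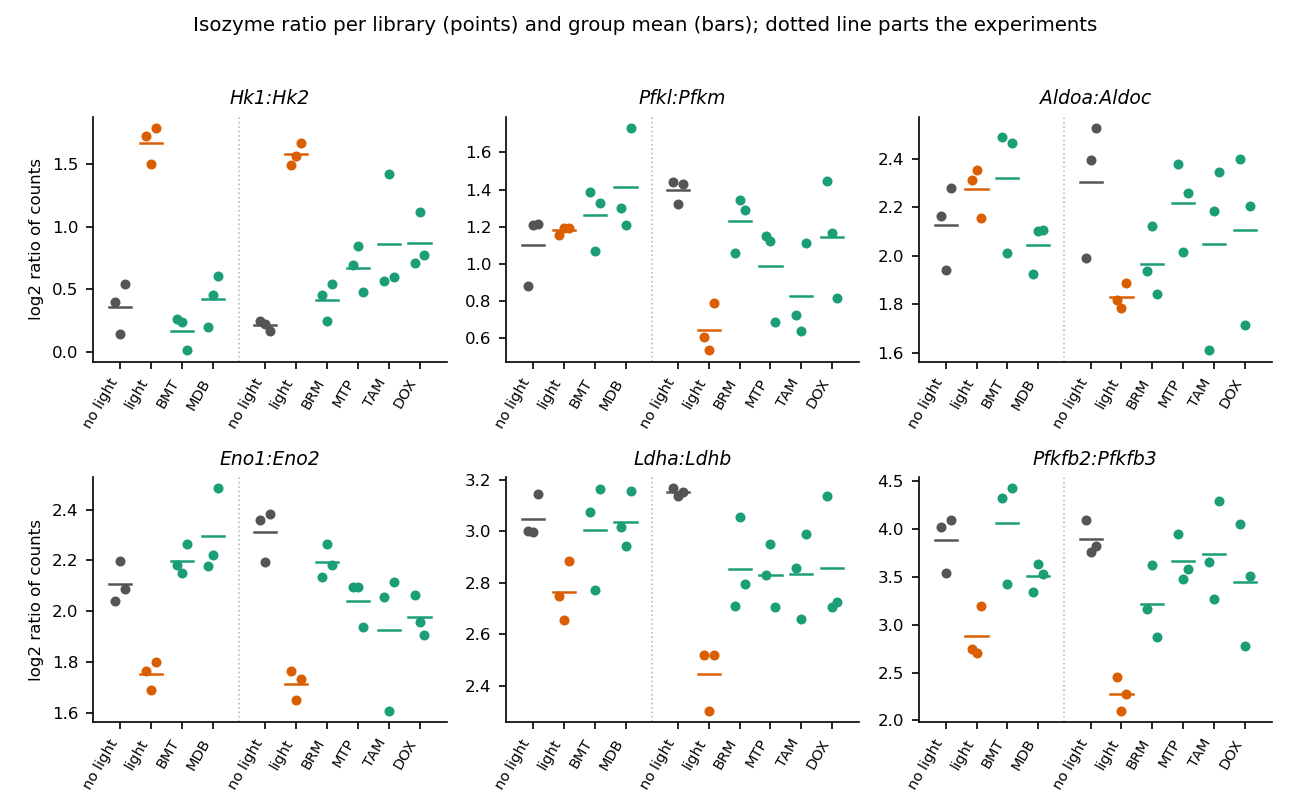
Log2 ratio of the counts of 2 isozymes (y axis) in each library (points) with the group mean (line), over the 10 groups (x axis), for Hk1 to Hk2, Pfkl to Pfkm, Aldoa to Aldoc, Eno1 to Eno2, Ldha to Ldhb and Pfkfb2 to Pfkfb3. Hk1 to Hk2 rises with light in both experiments, by 1.31 and 1.36, and the drug groups lie between the light and no-light groups or near the latter.

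Isozyme ratios within a library were compared between light and no light over both experiments, with an exact two-sided permutation test stratified by experiment. It had 400 arrangements, a smallest possible p of 0.005, and p adjusted over 12 pairs, which were chosen with earlier results known. Gene length makes the ratio itself unreadable as a level, so only its change between groups is used. The log2 ratio of Hk1 to Hk2 was 0.40, 0.14 and 0.54 without light and 1.72, 1.498 and 1.79 with light in the mixture experiment. Its single-drug values were 0.25, 0.22 and 0.17 and 1.49, 1.56 and 1.67. The groups did not overlap, and the ratio was higher with light by 1.34 (p = 0.005 in the exact permutation test, adjusted 0.012). With the drugs its mean was 0.17 ± 0.14 for BMT, 0.42 ± 0.20 for MDB, 0.41 ± 0.15 for BRM, 0.67 ± 0.19 for MTP, 0.86 ± 0.49 for TAM and 0.87 ± 0.22 for DOX (SD, n = 3). Those means were below both light means, 1.67 ± 0.15 and 1.58 ± 0.09.

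Of the other pairs, 4 more reached the smallest p, each with an adjusted p of 0.012. Light lowered Pfkfb2 relative to Pfkfb3 by a log2 difference of -1.31, Egln1 relative to Egln3 by -0.93, Ldha relative to Ldhb by -0.50 and Eno1 relative to Eno2 by -0.48. In each of these pairs the light and no-light libraries did not overlap in either experiment. Ppargc1a rose relative to Ppargc1b by 0.87 (exact permutation p = 0.02, adjusted 0.0343). Pdk3 fell relative to Pdk4, -1.11 (exact permutation p = 0.015, adjusted 0.03), but with 5 in place of 0.5 added to each count that was -0.66 with an adjusted p of 0.060. Pfkl relative to Pfkm gave 0.08 in the mixture and -0.75 in the single-drug experiment, and the pooled difference of -0.34 did not pass (exact permutation p = 0.055, adjusted 0.0825). When the mixture experiment was taken without no-light replicate 1, it was -0.39, with an adjusted p of 0.017. The remaining pairs did not pass either: Pdk1 to Pdk2 at 0.22, Aldoa to Aldoc at -0.16, Slc16a1 to Slc16a3 at -0.19 and Pfkp to Pfkm at 0.02.

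HIF-1 is the transcription factor of the hypoxia response, and Hif1a encodes its oxygen-regulated subunit. Hif1a stood at 967, 801 and 842 CPM without light and 724, 741 and 764 CPM with light in the mixture experiment. The other experiment gave 920.1, 877 and 907 CPM without light and 901, 884 and 762 CPM with light. Neither comparison passed the test, with log2 changes of -0.23 ± 0.08 (adjusted p = 0.0967) in the mixture experiment and -0.09 ± 0.07 (adjusted p = 0.433) in the single-drug experiment. It was called higher with BMT alone, at 945, 947 and 984 CPM, 0.37 ± 0.08 (adjusted p = 0.0107). Hif1a lost the BMT call without light replicate 1 (adjusted p = 0.0520). Egln1, the main oxygen sensor that marks HIF for decay, stood at 78.2, 119.8 and 83.9 CPM without light and 74.7, 78.6 and 69.3 CPM with light in the mixture experiment, where the groups overlapped. In the single-drug experiment Egln1 stood at 113, 109 and 107 CPM without light and 76.8, 78.0 and 76.3 CPM with light, where the light libraries lay close together and below. Its log2 change was -0.34 ± 0.13 (adjusted p = 0.124) in the mixture experiment and -0.51 ± 0.05 (adjusted p = 7.74e-05) in the single-drug experiment. With the drugs Egln1 stood at 97.7, 95.7 and 105 CPM with BMT and 107, 96.0 and 94.5 CPM with MDB. The single drugs gave 93.1, 101 and 97.8 CPM with BRM, 87.3, 89.9 and 87.8 CPM with MTP, 91.4, 82.3 and 91.8 CPM with TAM and 96.4, 94.0 and 88.5 CPM with DOX. All treated libraries exceeded light, and the calls were 0.42 ± 0.13 with BMT (adjusted p = 0.0479), 0.34 ± 0.05 with BRM (adjusted p = 0.00190), 0.20 ± 0.06 with MTP (adjusted p = 0.0319), 0.20 ± 0.06 with TAM (adjusted p = 0.0299) and 0.27 ± 0.05 with DOX (adjusted p = 0.00726). Egln1 lost the BMT call without any 1 of the 6 libraries (adjusted p 0.0693 to 0.133) and the MTP call without any 1 of the 6 libraries (adjusted p 0.0510 to 0.0921). Egln1 also lost the TAM call without any light library or TAM replicate 1 or 3 (adjusted p 0.0595 to 0.153).

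Egln3, a sensor that is itself raised by HIF, stood at 3.96, 5.64 and 4.28 CPM without light and 4.87, 4.80 and 5.87 CPM with light in the mixture experiment. The single-drug libraries held 4.83, 4.46 and 3.95 CPM without light and 8.26, 9.47 and 6.54 CPM with light. Light lay above in the latter and overlapped in the former, with log2 changes of 0.16 ± 0.22 (adjusted p = 0.697) in the mixture experiment and 0.87 ± 0.24 (adjusted p = 0.0139) in the single-drug experiment. The single-drug call was lost with an adjusted p of 0.0581 without no-light replicate 3 and 0.0682 without light replicate 2. Egln3 was called lower with DOX, at 3.04, 5.96 and 4.85 CPM, -0.80 ± 0.24 (adjusted p = 0.0391). Egln3 lost the DOX call without light replicate 1 or 2 or DOX replicate 1 or 3 (adjusted p 0.0645 to 0.174). Vegfa, the vessel growth factor and a standard HIF target, was not called anywhere. Vegfa stood at 65.9, 83.1 and 72.5 CPM without light and 71.4, 72.1 and 80.5 CPM with light in the mixture experiment. Single-drug levels were 65.7, 69.6 and 78.7 CPM without light and 68.5, 72.3 and 81.0 CPM with light, with overlapping groups and changes of 0.02 ± 0.10 and 0.05 ± 0.08. Bnip3, a HIF target in mitochondrial turnover, was called higher with BMT alone, 0.34 ± 0.09 (adjusted p = 0.0275), and its light changes were -0.25 ± 0.09 and -0.14 ± 0.07. Bnip3 lost the BMT call without light replicate 1 or 3 or BMT replicate 3 (adjusted p 0.0776 to 0.114).

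Ppargc1a and Ppargc1b encode PGC-1alpha and PGC-1beta, coactivators of mitochondrial genes. Ppargc1a (ENSMUSG00000029167, chr5:51454249-51567725, minus strand) stood at 74.2, 71.0 and 72.1 CPM without light and 54.1, 54.2 and 55.9 CPM with light in the mixture experiment. For the single-drug libraries the levels were 85.3, 76.2 and 79.4 CPM without light and 54.7, 50.8 and 51.5 CPM with light. Light libraries lay below in both, with log2 changes of -0.40 ± 0.08 (adjusted p = 0.00475) in the mixture experiment and -0.62 ± 0.11 (adjusted p = 0.000863) in the single-drug experiment. With the drugs Ppargc1a stood at 88.1, 76.0 and 92.4 CPM with BMT and 69.5, 79.7 and 71.5 CPM with MDB. Single-drug treatment gave 59.5, 71.3 and 62.7 CPM with BRM, 75.3, 63.5 and 77.5 CPM with MTP, 71.4, 66.9 and 84.9 CPM with TAM and 76.4, 60.6 and 66.3 CPM with DOX. All lay above light, and the calls were 0.64 ± 0.08 with BMT (adjusted p = 0.000304), 0.43 ± 0.08 with MDB (adjusted p = 0.00452), 0.46 ± 0.11 with MTP (adjusted p = 0.0134), 0.51 ± 0.11 with TAM (adjusted p = 0.00769) and 0.37 ± 0.11 with DOX (adjusted p = 0.0369). Ppargc1a lost the MTP call without light replicate 2 or MTP replicate 1 or 3 (adjusted p 0.0521 to 0.0599) and the TAM call without TAM replicate 3 (adjusted p = 0.0582). Ppargc1a also lost the DOX call without any light library or DOX replicate 1 (adjusted p 0.0561 to 0.189).

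Ppargc1b had the largest log2 change with light among the 35 genes in the single-drug experiment. It stood at 21.1, 35.3 and 38.5 CPM without light and 16.3, 15.6 and 16.9 CPM with light in the mixture experiment. The other experiment gave 36.2, 36.6 and 30.2 CPM without light and 10.8, 8.15 and 9.73 CPM with light. No light library reached the lowest library without light, and the log2 change was -0.96 ± 0.19 (adjusted p = 0.00615) in the mixture experiment and -1.85 ± 0.25 (adjusted p = 0.000158) in the single-drug experiment, or 1.95-fold and 3.59-fold lower. With the drugs Ppargc1b stood at 28.3, 25.5 and 24.5 CPM with BMT and 32.1, 32.3 and 42.6 CPM with MDB. With 1 drug alone the levels were 27.0, 31.4 and 29.2 CPM with BRM, 27.8, 27.2 and 18.2 CPM with MTP, 22.3, 16.5 and 31.0 CPM with TAM and 35.7, 27.8 and 18.6 CPM with DOX. Every treated library exceeded light, and the calls were 0.69 ± 0.19 with BMT (adjusted p = 0.0308), 1.13 ± 0.19 with MDB (adjusted p = 0.00303), 1.61 ± 0.25 with BRM (adjusted p = 0.00144), 1.35 ± 0.24 with MTP (adjusted p = 0.00345), 1.28 ± 0.25 with TAM (adjusted p = 0.00432) and 1.51 ± 0.25 with DOX (adjusted p = 0.00318). Ppargc1b lost the BMT call without any 1 of the 6 libraries (adjusted p 0.0542 to 0.0948).

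Beyond the 35 genes, 11 lists with 128 related genes were followed, chosen with earlier results known, against 7.75% higher and 5.47% lower of all genes in the mixture and 11.4% and 12.6% in the single-drug experiment. Of 10 HIF factors and regulators, 0 were called in the mixture experiment and 2 higher and 3 lower in the single-drug experiment. Arnt2, a partner of HIF, gave 0.57 ± 0.14 (adjusted p = 0.00860), Epas1, which encodes HIF-2alpha, -0.46 ± 0.12 (adjusted p = 0.0136), and Cited2, which limits HIF, -0.37 ± 0.08 (adjusted p = 0.00545). Of 20 further HIF targets, 1 was higher and 3 lower in each experiment. The stress repressor Bhlhe40 was higher, 0.63 ± 0.12 and 0.90 ± 0.16 (adjusted p = 0.00519 and 0.000908). The stress-response gene Ndrg1 was lower, -0.69 ± 0.13 and -0.62 ± 0.12 (adjusted p = 0.00339 and 0.00138), as was the mTOR inhibitor Ddit4, -0.38 ± 0.07 and -0.62 ± 0.12 (adjusted p = 0.00370 and 0.00170). Of 7 VEGF family genes and receptors, 2 and 3 were called higher and 0 lower. The VEGF receptor Kdr gave 1.24 ± 0.14 and 1.21 ± 0.22 (adjusted p = 0.000161 and 0.00112), and the co-receptor Nrp1 gave 0.74 ± 0.12 and 0.91 ± 0.20 (adjusted p = 0.00184 and 0.00401). The 7 markers of endothelium and pericytes summed to 75.4 to 87.3 CPM without light and 70.4 to 104 CPM with light in the mixture experiment, and to 66.7 to 74.9 and 94.8 to 105 CPM in the single-drug experiment, none of them at 0. Their part in the Kdr values was not tested.

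Among partners of the PGC-1 coactivators, 2 of 11 tested genes were higher and 3 lower in the mixture experiment, and 2 and 4 in the single-drug experiment. The nuclear receptors Esrrb, at -0.77 ± 0.09 and -1.495 ± 0.14 (adjusted p = 0.000161 and 4.87e-05), and Esrrg, at -0.45 ± 0.05 and -0.36 ± 0.09 (adjusted p = 0.000260 and 0.00645), were among those lower. So was Ppara, a receptor that drives fatty acid oxidation, at -0.57 ± 0.15 and -0.74 ± 0.11 (adjusted p = 0.0236 and 0.000364). A list of 20 genes held the citric acid cycle and linked malate and aspartate reactions. Of these, 1 was higher and 1 lower in the mixture experiment, and 0 and 3 in the single-drug experiment. In the latter, 12.6% of all genes were called lower. The aminotransferase gene Got2 at -0.36 ± 0.08 (adjusted p = 0.00527) and Sdha at -0.20 ± 0.06 (adjusted p = 0.0333) were among those lower there. Of 12 genes of pyruvate entry tested, 0 and 2 were higher and 2 and 1 lower. Pdp2, a phosphatase that opposes the Pdk kinases, was lower in both, -0.52 ± 0.09 and -0.86 ± 0.12 (adjusted p = 0.00261 and 0.000159).

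Of 10 glycogen genes, 2 were higher in the mixture experiment, and 4 higher and 1 lower in the single-drug experiment. Pgm1, a phosphoglucomutase, gave 0.58 ± 0.13 and 0.89 ± 0.16 (adjusted p = 0.0110 and 0.00116), and Gyg, the glycogen primer glycogenin, 0.57 ± 0.16 and 0.88 ± 0.19 (adjusted p = 0.0347 and 0.00361). Of 5 other glucose uptake genes tested, 1 and 2 were higher and 0 lower. The hexokinase domain gene Hkdc1 gave 1.16 ± 0.31 and 1.36 ± 0.40 (adjusted p = 0.0268 and 0.0228), and the neuronal glucose transporter Slc2a3 gave 0.39 ± 0.16 and 0.74 ± 0.16 (adjusted p = 0.127 and 0.00358). Among 8 other genes tested of lactate dehydrogenase and monocarboxylate transport, the carrier gene Slc16a6 alone was called. It was lower by log2 changes of -0.69 ± 0.11 and -1.22 ± 0.18 (adjusted p = 0.00161 and 0.000234). Among 6 other glycolytic isozymes tested, Bpgm alone was called, higher by 0.46 ± 0.08 and 0.39 ± 0.10 (adjusted p = 0.00276 and 0.0122). Of 8 pentose phosphate genes, 1 was higher and 1 lower in the mixture experiment, and 0 and 2 in the single-drug experiment, where G6pdx, the first enzyme of that pathway, gave -0.28 ± 0.07 (adjusted p = 0.00661) and Rpe -0.34 ± 0.10 (adjusted p = 0.0250).

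The authors' deposited tables of changed transcripts hold 4 transcripts of these genes for the mixture experiment, Hk1-201, Ppargc1b-001, Eno1-002 and Pfkfb2-002. For the single-drug experiment the authors' deposited table holds 7, Hk2-001, Pkm-201, Bsg-001, Ppargc1b-001, Slc16a3-201, Hk1-013 and Pfkfb2-002. In the authors' deposited table the no-light group stood above light by a log2 value of 1.27 for Hk2-001, 1.21 for Pkm-201, 1.37 for Bsg-001, 2.28 for Slc16a3-201, 1.87 for Ppargc1b-001 and 1.43 for Pfkfb2-002. For Hk1-013 the authors' deposited table gave, against light, -0.39 without light, -1.06 with BRM, -0.48 with DOX, -0.15 with MTP and 0.11 with TAM (adjusted p of the test over all groups, 0.0113). Hk1-201 without light stood below light, by -1.13 in the authors' deposited table of the mixture experiment (adjusted p of the test over all groups, 0.0233).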

How the data were processed

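Per the submitters' processing notes, reads were handled with Trimmomatic, Bowtie2, TopHat2, eXpress, edgeR and limma on the build GRCm38.p3, with no versions stated. The authors deposited expected counts per transcript estimated by eXpress, and FPKM per transcript from the same program. The log2 fold changes and p-values of the authors' deposited tables come from their own comparisons over groups and were copied, not recomputed. The labels' protocols describe stranded mRNA libraries and say that the 2 experiments were performed and analysed separately. Here the expected counts were summed per gene and rounded. Genes were filtered with filterByExpr, scaled by TMM and tested with edgeR 4.0.16 (quasi-likelihood, R 4.3.3), with all groups of an experiment in 1 fit and Benjamini-Hochberg adjustment over all genes tested. Genes were called at an adjusted p under 0.05. FPKM levels are sums over a gene's transcripts. Isozyme ratios added 0.5 to each count. The fits were run on simulated counts drawn from the estimated spread, without differences in lens content, so this does not bear on how calls depend on single libraries. Library pairs of a group differed by at least 8.58 times the sampling variance, so none was counted as a duplicate.

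The 35 genes, the pathway lists, the marker lists and the isozyme pairs were chosen with earlier results of these data known. By rule, every gene of the list is described, and up to 3 called genes of each pathway list with the smallest p in the single-drug experiment. Genes called in both light comparisons or in at least 2 drug comparisons have all library values, but for Gpi1, Pfkl and Aldoc. For those genes only the light and no-light libraries and those of the called drugs are printed. Replicate numbers were checked for pairing and the replicate block was tried. Other alternatives were DESeq2 1.42.0, limma 3.58.1 (voom, and log2 FPKM plus 1 per transcript), other size factors, no filter, only the groups compared, a lens-fibre score as a covariate and each library left out. In the FPKM setting each gene was read from its transcript with the highest mean. Promoter windows and exon sequences came from RefSeq (GRCm38.p6) and from GRCm38 with GENCODE M21, in which 226 of 226 transcripts of the 35 genes were found, 207 of them with equal ends.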

Additional observations from a re-analysis of the deposited data

How the results depend on the processing

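Of 116 calls among the 35 genes, 79 held under every other scaling, filter, tool and covariate that gave a value, and 57 with every single library left out. The FPKM setting tested 34 of the 35 genes in the mixture experiment, and an MDB call without a value there was judged by the other settings. DESeq2 called 17 of the 35 genes with light in the mixture experiment (11 in edgeR), 11 with TAM (7) and 3 for the difference between experiments (0). Fitted with only the groups compared, TAM gave 2. FPKM per transcript with limma ended 25 calls (adjusted p 0.0512 to 0.975), those of Bsg, Gapdh and Ldha for light in the mixture experiment, Bsg, Gpi1 and Pgk1 for light in the single-drug experiment, Aldoa, Egln1, Eno1, Gapdh and Ppargc1b for BMT, Bsg, Eno1, Ldha and Slc2a1 for MDB, Aldoc and Bsg for BRM, Aldoa and Egln1 for MTP, Egln1 for TAM and Bsg, Egln3, Pgam1, Ppargc1a and Slc16a1 for DOX. The lens score as a covariate ended 13 calls (adjusted p 0.0507 to 0.0854), those of Aldoc, Eno1, Hk2, Pdk3 and Slc2a1 for MDB, Aldoa, Eno1, Gapdh and Pgam1 for MTP, Pkm for TAM and Pgam1, Ppargc1a and Slc16a1 for DOX. Testing with no filter on low counts ended 6 calls (adjusted p 0.0515 to 0.0634), those of Pgk1 for light in the single-drug experiment, Aldoa for BMT, Ldha for MDB, Egln1 for TAM and Egln3 and Pdk3 for DOX. Fitting only the groups compared ended 17 calls (adjusted p 0.0505 to 0.174), those of Bsg and Gapdh for light in the mixture experiment, Gpi1 for light in the single-drug experiment, Aldoa for BMT, Egln1 and Gapdh for MTP, Egln1, Hk2, Pkm, Ppargc1a and Slc16a1 for TAM and Bsg, Egln3, Gpi1, Pdk3, Pgam1 and Ppargc1a for DOX. The replicate block ended 9 calls (adjusted p 0.0501 to 0.0607), those of Aldoa and Egln1 for BMT, Hk2 and Slc2a1 for MDB, Aldoc for BRM, Egln1 for MTP, Pkm for TAM and Egln3 and Pgam1 for DOX. In FPKM, where 1 transcript stood for each gene, the Bsg value was -0.0083 with light in the single-drug experiment and 0.10 with BRM. It turned to -0.053 with DOX (adjusted p = 0.842), and none of these is a change of the whole gene. With 1 library left out, called genes numbered 6 to 13 for light in the mixture experiment, 15 to 21 in the single-drug experiment, 9 to 16 for BMT, 6 to 9 for MDB, 8 to 18 for BRM, 5 to 12 for MTP, 3 to 10 for TAM, 5 to 16 for DOX and 0 for the difference. With 5 added to each count, Pdk3 to Pdk4 moved to -0.66. With 1 library left out it ran from -1.38 to -0.89, Pfkl to Pfkm from -0.39 to -0.31, and Pfkp to Pfkm from -0.029 to 0.066, where it reversed to -0.023, -0.029, -0.011 and -0.025. The cause of these changes was not tested, and a fit with 1 library left out also has fewer libraries. With 3 libraries a group, a missed threshold does not show that a level was the same.

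Deviations of same-numbered libraries had a median correlation of -0.012 in the mixture and -0.011 in the single-drug experiment, against 0.018 and 0.012 for other numbers. Values for the same number ran from -0.22 to 0.56 and from -0.26 to 0.44. For other numbers they ran from -0.49 to 0.37 and from -0.36 to 0.45. With so wide a spread the medians do not settle whether any libraries were paired. With the replicate block, called genes numbered 11 and 19 for light, 15 for BMT, 13 for MDB, 15 for BRM, 12 for MTP, 6 for TAM, 16 for DOX and 0 for the difference.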
